A study of Mus musculus with 6 samples.

Results

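The amino acid response, serine and one-carbon genes form a set of 41 genes, of 18046 genes listed for each library, taken by gene symbol from a fixed list. They cover transcription factors, kinases and feedback regulators of the integrated stress response, enzymes of serine synthesis and of the folate one-carbon cycle, other amino acid enzymes, amino acid transporters and a pair of further target genes. RNA was sequenced from mouse T cells that had been exposed to LPC at 20 µM (3 libraries) or to a vehicle (3 libraries). Both groups were naive CD4+ T cells from the spleen of C57BL/6 mice with a labelled age of 3 weeks, and both were activated through CD3 and CD28 for 3 days in vitro while being polarized towards T helper 1 (Th1) cells. The labels neither expand LPC nor name the vehicle, and they leave unstated if replicate libraries were made from different mice or cultures. All p-values therefore measure the spread between these libraries, which may be technical. The design asks what LPC does to the transcripts of T cells that are becoming Th1 cells.

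The integrated stress response is started by kinases that phosphorylate the translation initiation factor eIF2. General protein synthesis then falls, while the transcription factor ATF4 is translated more and switches on genes that import and make amino acids. Serine made from a glycolytic intermediate feeds the folate cycle, whose cytosolic and mitochondrial branches supply one-carbon units for purines, thymidylate and methyl groups. Activated T cells are known to raise both serine synthesis and mitochondrial one-carbon enzymes as they enter division. ATF4 binds with C/EBP partners to a composite C/EBP-ATF element, written here as TGATGNAA.

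LPC raised a small group of the genes, 4 of the 6 being enzymes of serine and folate metabolism. Asns, Trib3, Chac1 and Ddit3, which serve as readouts of ATF4 in many cells, did not pass the test. Stc2, which ATF4 is also known to induce, was among the genes that rose. These 5 genes are examples, and the other risen genes were not sorted by whether ATF4 induces them. The part of ATF4 in these changes was not tested. Of the 41 genes, 39 had enough expression to be tested (FPKM, fragments per kilobase of exon scaled to sequencing depth, at or above 1 in at least 3 libraries), 6 rose, 1 fell and 32 did not pass. A gene was called changed at a Benjamini-Hochberg adjusted p under 0.05 in limma, adjusted over all 10138 tested genes. The 7 called genes are 17.9% of the tested members, close to the 13.7% called among all tested genes, so the total is not a result about this set. By direction, 6 of 39 rose against a background of 5.82% of all tested genes, and 1 of 39 fell against 7.91%. The risen genes were Psph, Shmt1, Mthfd1, Mthfd1l, Atf5 and Stc2, and the fallen gene was Eif2ak4. Their log2 changes, LPC minus vehicle on the log2(FPKM + 1) scale, ran from -0.35 to 0.54, and none exceeded 2-fold, a size that 0.197% of all tested genes passed. The 3 LPC libraries lay above all vehicle libraries for 11 of the 39 genes, against 13.7% of all tested genes, and below them for 3, against 20.7%. Together these are 14 of 39 genes, or 35.9%, against 34.5% of all tested genes. The median log2 change was 0.07 over the 39 genes and -0.04 over all tested genes. Over all tested genes, 42.4% of the calls were rises, and 53.1% were after median centring of the libraries. In these bulk samples, fewer cells of a type and less RNA per cell cannot be told apart. With LPC replicate 1, or any 1 of the 3 vehicle libraries, left out, 3 of the 39 genes were called (7.69%). The share of all tested genes called was then 6.92% for LPC replicate 1 and 5.06%, 5.58% and 9.38% for vehicle replicates 1 to 3.

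**Figure D1:**
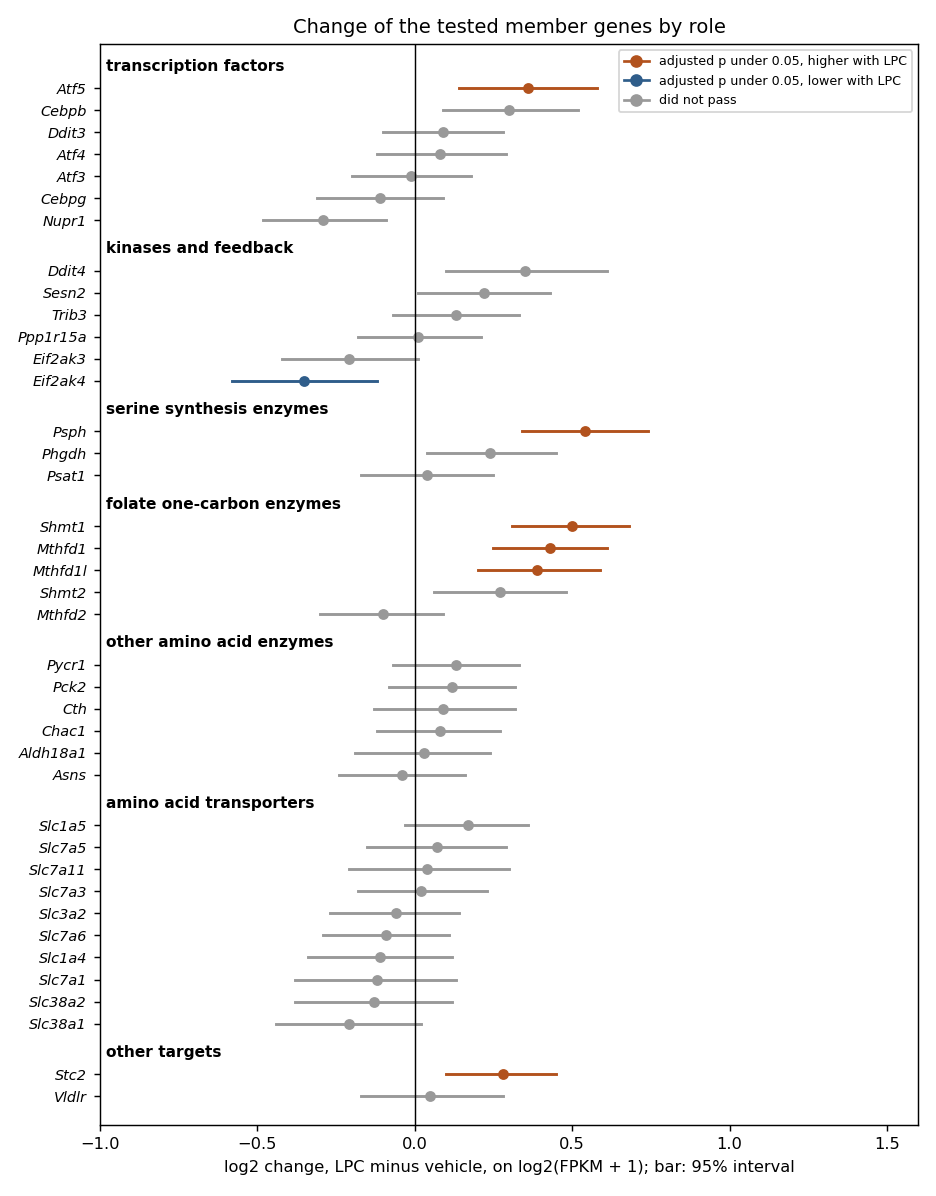
Log2 change (LPC minus vehicle, on log2(FPKM + 1)) of the 39 tested genes by role, with the 95% interval of each gene as a bar. The 6 genes that rose are 4 enzymes of serine and folate metabolism, Atf5 and Stc2, Eif2ak4 is the 1 that fell, and all 10 transporters have intervals that reach 0.

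The libraries carried the markers of CD4+ T cells. The summed FPKM of Cd3e, Cd3d, Cd3g, Cd4 and Cd28 was 719 to 768 in LPC libraries and 758 to 777 in vehicle libraries. Cd4 itself was at 177, 170 and 144 FPKM in LPC libraries and at 185, 205 and 199 FPKM in vehicle libraries, without overlap, and did not pass (log2 change -0.27, limma adjusted p = 0.0875), while the groups overlapped for the other 4 genes. Of 5 B cell markers none exceeded 0.63 FPKM in any library, and the NK cell genes Ncr1 and Klra8 were listed at 0 in all 6. Of the CD8 T cell markers, Cd8a stayed at or under 0.33 FPKM. Cd8b1 was at 12.6, 12.1 and 10.6 FPKM in LPC libraries and at 13.8, 13.4 and 14.2 FPKM in vehicle libraries, without overlap, and did not pass (log2 change -0.22, limma adjusted p = 0.142). The summed FPKM of 4 NK cell markers was 5.10 to 5.33 in LPC libraries and 6.31 to 8.78 in vehicle libraries, nearly all of it Eomes, a transcription factor that T cells also use (log2 change -0.49, limma adjusted p = 0.0146). That of 4 dendritic cell markers was 1.25 to 1.61 in LPC libraries and 2.86 to 2.94 in vehicle libraries, nearly all of it Zbtb46 (log2 change -0.68, limma adjusted p = 0.00139), with Flt3, Xcr1 and Siglech under the filter. The B cell sum was 0.52 to 0.89 in LPC libraries and 1.01 to 1.05 in vehicle libraries, and that of 6 myeloid markers was 3.26 to 4.94 with LPC and 3.52 to 5.53 with vehicle. That of 4 erythroid markers was 0.29 to 0.62 with LPC and 0.15 to 0.23 with vehicle. The part of these cell types in the results was not tested. LPC replicate 3 stood apart, with the highest FPKM sum (641026, against 556561 to 588274 in the others) and the fewest genes at 0 (17.9% of those listed; 19.4% to 20.2% in the others). It was the lowest of the 6 libraries for 14 of the 39 genes and for 38.9% of all tested genes. Without it 9 of the 39 genes were called (23.1%, against 11.3% of all tested genes), namely the 6 that rose, with log2 changes of 0.29 for Stc2 to 0.53 for Shmt1, and Shmt2, Sesn2 and Nupr1.

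The sequences of promoter windows show which members carry the element named above. RefSeq windows on GRCm38.p6, from 250 bases before to 50 bases after a transcript start, were found for 36 of the 41 genes. The letters TGATGNAA, read on both strands, occurred in a window of 10 of those 36 genes (27.8%), against 4.51% of all genes with a window and 2.70% of the tested genes with one. The list was named for integrated stress response targets, so that excess describes how it was put together and is not independent evidence. Stretches of 30 bases around the match are shown for 6 of these genes, chosen after their values were seen, because they are the places where ATF4 and C/EBP factors could meet these promoters. Each is written in the direction of its gene with the matched letters in capitals.
Asns: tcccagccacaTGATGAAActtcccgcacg
Atf3: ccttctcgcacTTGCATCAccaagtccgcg
Chac1: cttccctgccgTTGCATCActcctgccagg
Pycr1: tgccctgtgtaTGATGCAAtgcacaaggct
Nupr1: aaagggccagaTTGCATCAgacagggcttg
Slc7a11 (first match): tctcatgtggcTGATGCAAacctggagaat
Slc7a11 (second match): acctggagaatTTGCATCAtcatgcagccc
The Asns stretch is chr6:7693214-7693243 on the minus strand, with the match starting 23 bases before the transcript start. For Atf3 it is chr1:191183425-191183454 (minus strand, 110 bases before), for Chac1 chr2:119351038-119351067 (plus strand, 193 bases before) and for Pycr1 chr11:120643833-120643862 (minus strand, 103 bases before). The Nupr1 stretch is chr7:126625562-126625591 (minus strand, 110 bases before). The Slc7a11 stretches are chr3:50443661-50443690 and chr3:50443642-50443671 (minus strand, 66 and 47 bases before), and they share their flanks. TTGCATCA is the same element read on the other strand. The other holders were Trib3, Slc1a4, Pck2 and Vldlr.

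None of the 10 genes with a match was called changed, against 13.7% of all tested genes, too few genes for a result about them. Their log2 changes ran from -0.29 to 0.13 with a median of 0.05. Of the 26 genes with a window and no match, 24 were tested, with a median of 0.09. Among these, 6 rose, against 5.82% of all tested genes, and 1 fell, against 7.91%. The difference between these groups was not tested. Of the other motifs searched on both strands, TGACGTCA (the cyclic AMP response element) was in a window of 1 of the 36 genes, Ppp1r15a, against 2.03% of all genes, and CACGTG (the E-box) in windows of 3, against 8.09%. A match is a string of letters and not a measured binding site.

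The serine synthesis pathway has 3 enzymes, and its last one changed most. Psph, the phosphatase that releases serine in the final step, was at 104, 106 and 123 FPKM in LPC libraries and at 80.0, 70.8 and 76.7 FPKM in vehicle libraries. Every LPC library exceeded every vehicle library, and the mean was 111 ± 10.2 FPKM with LPC and 75.8 ± 4.67 FPKM with vehicle (SD, n = 3 each). The log2 change was 0.54 (SE 0.09, limma adjusted p = 0.00348). The call was kept when any 1 library was left out, and the log2 change was then 0.47 to 0.59. Psph lies on chromosome 5 of GRCm38.p6 at 129765558 to 129787443. Of its annotated exon bases 26.1% are shared with Cct6a, a chaperonin gene on the other strand, whose log2 change was 0.08 (limma adjusted p = 0.562), and the labels do not say whether counting used strand.

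Phgdh, which commits 3-phosphoglycerate to serine, was at 470, 425 and 440 FPKM in LPC libraries and at 388, 349 and 392 FPKM in vehicle libraries. The groups did not overlap, but Phgdh did not pass (log2 change 0.24, 95% interval 0.04 to 0.45, limma adjusted p = 0.106). Psat1, the aminotransferase of the middle step, was at 265, 317 and 280 FPKM in LPC libraries and at 288, 285 and 265 FPKM in vehicle libraries. Its groups overlapped (log2 change 0.04, interval -0.17 to 0.25, limma adjusted p = 0.826). Within each library, Psph stood at 0.391, 0.336 and 0.438 of the Psat1 level with LPC and at 0.278, 0.249 and 0.289 with vehicle. That ratio, which does not depend on how a library is scaled, differed by 0.51 on the log2 scale (SE 0.13). The 2-sided exact permutation p was 0.1, the smallest that 3 against 3 libraries can give, and 0.2 after adjustment over the 8 pairs compared. Psph had itself been called as risen in these libraries, so its ratio to Psat1 is not separate support.

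Both cytosolic folate enzymes rose, and over the 5 tested folate enzymes the median log2 change was 0.39. Shmt1, which moves a one-carbon unit from serine to folate in the cytosol, was at 22.7, 22.7 and 21.4 FPKM in LPC libraries and at 15.3, 15.1 and 16.0 FPKM in vehicle libraries. Its lowest LPC library was above its highest vehicle library (log2 change 0.50, SE 0.09, limma adjusted p = 0.00346). Mthfd1, the trifunctional enzyme that interconverts cytosolic folates, was at 27.1, 29.0 and 27.5 FPKM in LPC libraries and at 19.9, 20.5 and 21.0 FPKM in vehicle libraries. Its groups were as clearly apart (log2 change 0.43, SE 0.08, limma adjusted p = 0.00696). Both calls were kept in all 13 alternative fits tried, where the log2 change was 0.48 to 0.55 for Shmt1 and 0.40 to 0.48 for Mthfd1. Shmt1 lies on chromosome 11 at 60788897 to 60811265 and Mthfd1 on chromosome 12 at 76254406 to 76319820. Shmt1 shares 6.44% of its exon bases with Smcr8 on the other strand, whose log2 change was 0.04 (limma adjusted p = 0.874).

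Among the mitochondrial enzymes, 1 of 3 tested rose, against 5.82% of all tested genes, too few enzymes for a result about them as a group. Mthfd1l, the synthetase that releases formate from mitochondrial folate, was at 49.2, 52.4 and 43.8 FPKM in LPC libraries and at 38.1, 36.8 and 34.8 FPKM in vehicle libraries. Its groups did not overlap (log2 change 0.39, SE 0.09, limma adjusted p = 0.0144). Its adjusted p lay just over the threshold without LPC replicate 1 (0.0509) and without any vehicle library (0.0501, 0.0504 and 0.053 for numbers 1 to 3), where log2 changes were 0.36 to 0.42. The call also ended with no filter on low values (limma adjusted p = 0.0872). Mthfd1l lies on chromosome 10 at 3972892 to 4167081. Shmt2, the mitochondrial counterpart of Shmt1, was at 424, 388 and 363 FPKM in LPC libraries and at 336, 331 and 307 FPKM in vehicle libraries. Its groups did not overlap either, and it did not pass (log2 change 0.27, interval 0.06 to 0.48, limma adjusted p = 0.0798), though it did without LPC replicate 3 (0.32, adjusted p = 0.0307). Mthfd2, the mitochondrial dehydrogenase of proliferating cells, was at 251, 265 and 238 FPKM in LPC libraries and at 285, 264 and 261 FPKM in vehicle libraries. It had a log2 change of -0.10 (interval -0.30 to 0.09, limma adjusted p = 0.469), with overlapping groups. Mthfd2l, its paralogue, stayed under the filter at 0.63 to 0.82 FPKM in LPC libraries and 0.72 to 0.80 FPKM in vehicle libraries.

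For both pairs of enzymes whose ratio was formed, the mitochondrial member was above the cytosolic one in each library, and the LPC ratios lay below the vehicle ratios. Mthfd2 was at 9.27, 9.15 and 8.65 times the FPKM of Mthfd1 in LPC libraries and at 14.4, 12.9 and 12.4 times in vehicle libraries. The groups did not overlap, with a difference of -0.55 on the log2 scale (SE 0.07). Shmt2 was at 18.6, 17.1 and 17.0 times the FPKM of Shmt1 in LPC libraries and at 21.9, 21.9 and 19.2 times in vehicle libraries, a log2 difference of -0.26 (SE 0.08). Both had an exact permutation p of 0.1, the smallest possible with these libraries, and 0.2 after adjustment over 8 pairs. The cytosolic member of each pair had itself been called as risen, so these ratios are not separate support. No ratio was formed for mitochondrial Mthfd1l and cytosolic Mthfd1, which both rose (log2 changes 0.39 and 0.43). The ratios therefore describe these pairs and not the mitochondrial enzymes as a set.

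**Figure D2:**
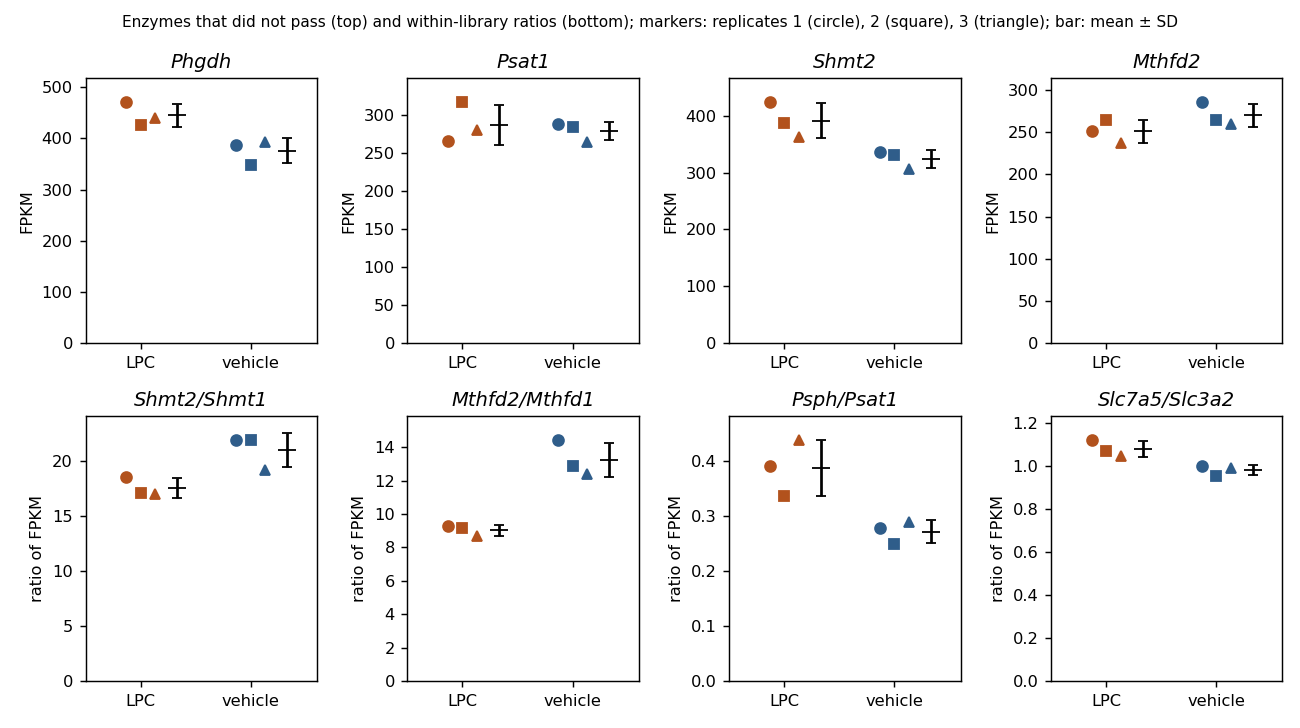
Top, FPKM of Phgdh, Psat1, Shmt2 and Mthfd2, which did not pass, and bottom, within-library FPKM ratios of 4 pairs, with LPC libraries left of vehicle libraries, 1 marker per library and the mean ± SD as a bar. The Mthfd2 to Mthfd1 ratio is 8.65 to 9.27 with LPC and 12.4 to 14.4 with vehicle.

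**Figure D3:**
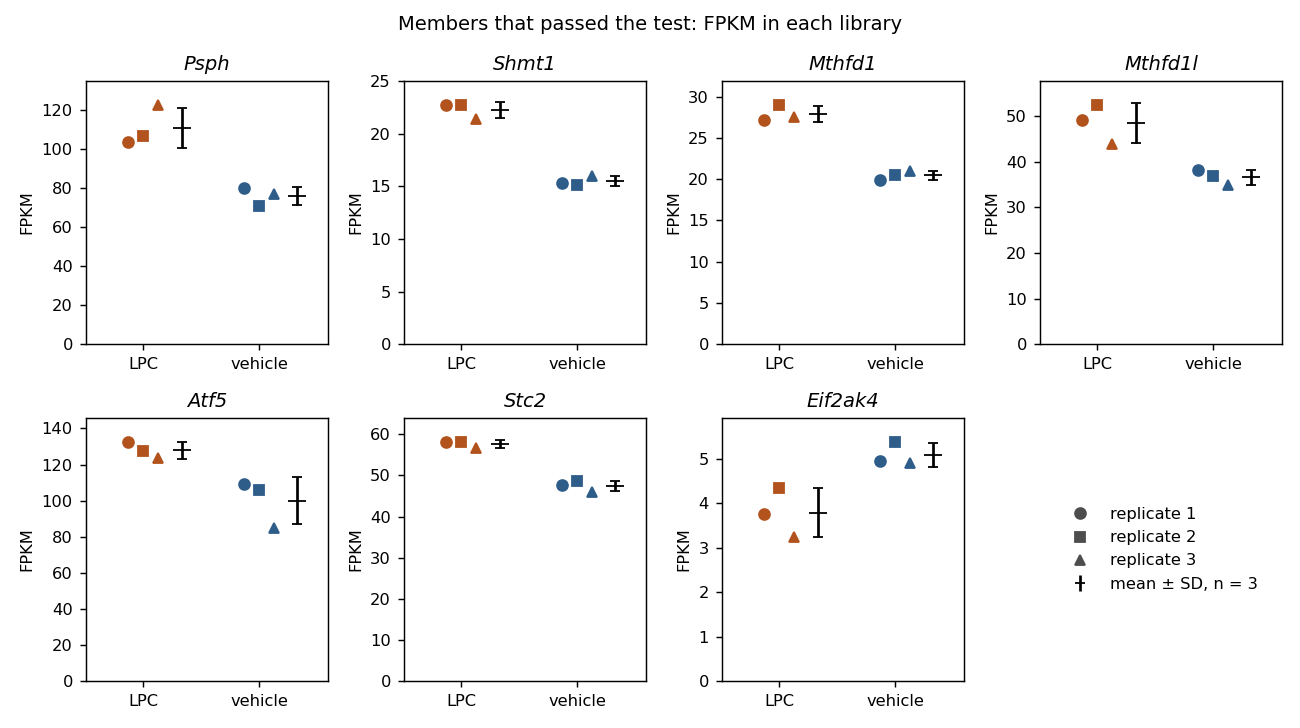
FPKM in each library of the 7 genes that passed the test, LPC left of vehicle, with the mean ± SD (n = 3) as a bar and axes from 0. The LPC libraries lie above all vehicle libraries for Psph, Shmt1, Mthfd1, Mthfd1l, Atf5 and Stc2, and below them for Eif2ak4.

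The transcription factors were abundant in both groups, and Atf5 was the 1 of 7 that passed (14.3%, near the 13.7% of all tested genes). Atf4, the effector of the response, ranked at 120 of 10138 tested genes by mean FPKM, at 659, 675 and 681 FPKM in LPC libraries and 644, 640 and 619 FPKM in vehicle libraries. Every LPC library was above every vehicle library, yet by little, and Atf4 did not pass (log2 change 0.08, interval -0.12 to 0.29, limma adjusted p = 0.58, and -0.03 on the log2 scale with quantile normalization). Its activity is set largely by translation, which transcript levels do not measure. Ddit3, which encodes the stress factor CHOP, was at 190, 208 and 207 FPKM in LPC libraries and at 198, 184 and 185 FPKM in vehicle libraries (log2 change 0.09, interval -0.10 to 0.28, limma adjusted p = 0.506). The Ddit3 to Atf4 ratio was 0.288, 0.308 and 0.304 in LPC libraries and 0.307, 0.288 and 0.299 in vehicle libraries. Ddit3 shares 7.64% of its exon bases with Mars on the other strand, whose log2 change was 0.00. Atf3, a stress-induced repressor and activator, was at 50.03, 56.6 and 56.0 FPKM in LPC libraries and at 57.2, 54.0 and 52.5 FPKM in vehicle libraries, and its log2 change of -0.01 had an interval of -0.20 to 0.18.

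Atf5, a relative of Atf4 with a role in the mitochondrial stress response, was at 133, 128 and 123 FPKM in LPC libraries and at 109, 106 and 84.9 FPKM in vehicle libraries. Vehicle replicate 3 was the lowest by a wide margin, and the groups did not overlap (log2 change 0.36, SE 0.10, limma adjusted p = 0.0344). Leaving out LPC replicate 1 ended the call (adjusted p = 0.106), and so did leaving out any vehicle library (0.0579, 0.0564 and 0.157 for numbers 1 to 3, the last with a log2 change of 0.25). So did correction for GC share and transcript length (0.0624), quantile normalization (0.0782) and no filter on low values (0.166). Atf5 lies on chromosome 7 at 44812256 to 44816658. Cebpb, a C/EBP partner of ATF4, was at 76.3, 68.3 and 70.5 FPKM in LPC libraries and at 66.0, 51.9 and 56.7 FPKM in vehicle libraries and did not pass (log2 change 0.30, limma adjusted p = 0.0601). Cebpg, the other C/EBP partner, ranged over 17.9 to 21.0 FPKM with LPC and 19.6 to 21.5 FPKM with vehicle, with a log2 change of -0.11 (limma adjusted p = 0.462). Nupr1, a small stress-induced chromatin protein, was at 152, 158 and 168 FPKM in LPC libraries and at 203, 201 and 180 FPKM in vehicle libraries. All LPC libraries lay below all vehicle libraries, and it did not pass (log2 change -0.29, limma adjusted p = 0.0511). It did with correction for GC share and length (-0.35, adjusted p = 0.0203), with quantile normalization (-0.35, adjusted p = 0.0223) and without LPC replicate 3 (-0.33, adjusted p = 0.027).

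Of the kinases and feedback regulators, 1 of 6 passed (16.7%, near the 13.7% of all tested genes). Eif2ak4, which encodes GCN2, the eIF2 kinase that senses uncharged tRNA, was at 3.77, 4.35 and 3.24 FPKM in LPC libraries and at 4.96, 5.39 and 4.90 FPKM in vehicle libraries. The groups did not overlap, LPC replicate 3 was the lowest, and the log2 change was -0.35 (SE 0.11, limma adjusted p = 0.0445). Its transcripts are longer than those of 98% of tested genes. The call ended without LPC replicate 1 (adjusted p = 0.111), without LPC replicate 3 (0.106, log2 change -0.27) and without any vehicle library (0.124, 0.169 and 0.0734 for numbers 1 to 3). Quantile normalization (0.0612) and no filter on low values (0.16) also ended it, and it was kept with correction for GC share and length (-0.24, adjusted p = 0.0427). Eif2ak4 lies on chromosome 2 at 118388583 to 118475234. Eif2ak3, which encodes PERK, the eIF2 kinase of the endoplasmic reticulum, was at 7.67, 7.92 and 6.70 FPKM in LPC libraries and at 8.87, 9.03 and 8.23 FPKM in vehicle libraries (log2 change -0.21, limma adjusted p = 0.176).

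The other 4 regulators of this group did not pass. Trib3, a pseudokinase that restrains ATF4, was at 138, 129 and 120 FPKM in LPC libraries and at 129, 112 and 113 FPKM in vehicle libraries (log2 change 0.13, interval -0.07 to 0.33, limma adjusted p = 0.371). Ppp1r15a, which encodes the eIF2 phosphatase subunit GADD34, was at 72.0, 72.5 and 62.9 FPKM in LPC libraries and at 67.6, 70.9 and 66.5 FPKM in vehicle libraries (log2 change 0.01, limma adjusted p = 0.935). Ddit4 and Sesn2 encode inhibitors of the growth kinase mTORC1. Ddit4 was at 91.1, 62.8 and 75.9 FPKM in LPC libraries and at 60.5, 54.7 and 62.3 FPKM in vehicle libraries. The lowest LPC library lay just above the highest vehicle library. Its interval reached furthest from 0 among the 32 genes that did not pass (log2 change 0.35, interval 0.10 to 0.61, limma adjusted p = 0.0634), and passed without LPC replicate 2 (0.49, adjusted p = 0.0128) and with correction for GC share and length (0.33, adjusted p = 0.0487). Sesn2 was at 70.9, 69.1 and 59.7 FPKM in LPC libraries and at 62.8, 54.2 and 54.1 FPKM in vehicle libraries (log2 change 0.22, limma adjusted p = 0.149), and passed without LPC replicate 3 (0.29, adjusted p = 0.049).

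None of the 6 tested enzymes of other amino acids passed, against 13.7% of all tested genes, too small a list for a result about them. Their log2 changes lay between -0.04 and 0.13. Asns, the asparagine synthetase that is a standard readout of ATF4, was at 267, 287 and 247 FPKM in LPC libraries and at 275, 272 and 275 FPKM in vehicle libraries. The vehicle values fell inside the LPC range (log2 change -0.04, interval -0.24 to 0.16, limma adjusted p = 0.807). Chac1, which degrades glutathione and is strongly induced by ATF4 in many cells, was at 50.4, 42.6 and 42.7 FPKM in LPC libraries and at 43.6, 42.4 and 42.2 FPKM in vehicle libraries (log2 change 0.08, interval -0.12 to 0.27). The proline enzyme gene Pycr1 ranged over 42.7 to 50.6 FPKM with LPC and 40.97 to 45.0 FPKM with vehicle (log2 change 0.13), and Aldh18a1, earlier in the same pathway, over 109 to 137 FPKM with LPC and 119 to 129 FPKM with vehicle (0.03). The mitochondrial PEP carboxykinase gene Pck2 ranged over 90.7 to 107 FPKM with LPC and 82.2 to 94.1 FPKM with vehicle (log2 change 0.12). The cystathionine lyase gene Cth ranged over 71.3 to 93.5 FPKM with LPC and 74.9 to 83.5 FPKM with vehicle (log2 change 0.09). The groups overlapped for all 6 enzymes, while they did not overlap for 34.5% of all tested genes. Cbs, the enzyme before Cth in cysteine synthesis, stayed under the filter at 0.40 to 0.62 FPKM in LPC libraries and 0.34 to 0.49 FPKM in vehicle libraries.

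None of the 10 amino acid transporter genes passed, against 13.7% of all tested genes, too small a list for a result about them. Their log2 changes ran from -0.21 to 0.17 with a median of -0.08. Slc7a5 and Slc3a2 encode the light and heavy chains of the large neutral amino acid transporter that carries leucine into activated T cells. Slc7a5 was at 407, 355 and 321 FPKM in LPC libraries and at 355, 339 and 336 FPKM in vehicle libraries (log2 change 0.07, interval -0.15 to 0.29, limma adjusted p = 0.697). Slc3a2 was at 365, 333 and 307 FPKM in LPC libraries and at 355, 354 and 337 FPKM in vehicle libraries (log2 change -0.06, interval -0.27 to 0.14). Their ratio was 1.12, 1.07 and 1.05 in LPC libraries and 1.00, 0.956 and 0.994 in vehicle libraries, without overlap (log2 difference 0.13, SE 0.03, exact permutation p = 0.1, adjusted p = 0.2). The glutamine carrier Slc1a5 was at 168, 175 and 154 FPKM in LPC libraries and at 156, 146 and 140.0 FPKM in vehicle libraries (log2 change 0.17, limma adjusted p = 0.231). The neutral amino acid carrier Slc38a1 was at 49.0, 54.1 and 41.6 FPKM in LPC libraries and at 55.2, 60.6 and 51.4 FPKM in vehicle libraries (log2 change -0.21, limma adjusted p = 0.202).

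The cystine exchanger Slc7a11, which holds both element matches shown above, was the lowest tested member, at 2.44, 3.20 and 2.09 FPKM in LPC libraries and 2.58, 2.60 and 2.16 FPKM in vehicle libraries. The cationic carrier genes Slc7a1 and Slc7a3 had log2 changes of -0.12 and 0.02, with 69.7 to 97.8 FPKM with LPC and 81.5 to 96.4 FPKM with vehicle for Slc7a1 and 42.7 to 48.7 FPKM with LPC and 40.5 to 47.9 FPKM with vehicle for Slc7a3. Slc7a6, which exchanges cationic for neutral amino acids, ranged over 14.0 to 16.1 FPKM with LPC and 15.4 to 16.4 FPKM with vehicle (log2 change -0.09). The serine and alanine carrier Slc1a4 ranged over 27.7 to 36.6 FPKM with LPC and 33.1 to 36.8 FPKM with vehicle (log2 change -0.11), and the glutamine carrier Slc38a2 over 51.6 to 69.3 FPKM with LPC and 58.6 to 72.6 FPKM with vehicle (-0.13). The groups overlapped for all 10 transporters, while they did not overlap for 34.5% of all tested genes. LPC replicate 3 was the lowest of the 6 libraries for 7 of the 10 transporter genes, and for 38.9% of all tested genes. The median deviation of the transporter genes from the vehicle mean was 0.02, 0.05 and -0.17 on the log2 scale in LPC replicates 1 to 3. Over all tested genes it was -0.04, 0.00 and -0.09. The part of LPC replicate 3 in these values was not tested beyond leaving it out.

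Stc2, a secreted glycoprotein gene that ATF4 is known to induce, was at 58.04, 58.21 and 56.60 FPKM in LPC libraries and at 47.75, 48.55 and 46.01 FPKM in vehicle libraries. Both groups were tight and did not overlap (log2 change 0.28, SE 0.08, limma adjusted p = 0.0399). The call ended without LPC replicate 1 (adjusted p = 0.0845), without any vehicle library (0.146, 0.134 and 0.138 for numbers 1 to 3) and with quantile normalization (0.0667), where log2 changes were 0.24 to 0.29. Stc2 lies on chromosome 11 at 31359441 to 31370061. Vldlr, a lipoprotein receptor gene that ATF4 also induces, was at 4.87, 5.14 and 4.11 FPKM in LPC libraries and at 4.43, 4.80 and 4.24 FPKM in vehicle libraries (log2 change 0.05, limma adjusted p = 0.772).

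For the 32 genes that did not pass, the intervals bound the change without showing that there was none. For 31 of them the unadjusted 95% interval of the log2 change lay inside 1.5-fold in either direction (0.58 on the log2 scale), Ddit4 being the exception. So did the intervals of 34 of all 39 tested members and of 8845 of the 10138 tested genes. The largest called rise was 1.45-fold, so this bound does not set these genes apart from called ones. Cebpb, Nupr1, Sesn2, Ddit4, Phgdh and Shmt2 had unadjusted intervals that did not reach 0. Such bounds hold on the log2(FPKM + 1) scale. This scale understates the change of low genes, whether called or not, such as Slc7a11, Eif2ak4 and Zbtb46.

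Other genes of the same pathways, in 6 companion lists of 106 listed genes, gave 7 rises and 2 falls among 88 tested, or 10.2%, against 13.7% of all tested genes. Leaving out vehicle replicate 1 or 2 gave 3 calls in all, LPC replicate 1 gave 4 and LPC replicate 2 gave 19. Of 17 tested folate cycle and glycine genes 2 rose (11.8%). Slc19a1, the reduced folate carrier, was at 33.6, 28.8 and 30.8 FPKM in LPC libraries and at 23.7, 23.1 and 24.2 FPKM in vehicle libraries (log2 change 0.37, limma adjusted p = 0.0157). The call ended on leaving out LPC replicate 1 (adjusted p = 0.0598) or the first or second vehicle library (0.0728 and 0.0748), and with no filter on low values (0.069). Gcsh, the lipoyl carrier of the glycine cleavage system, averaged 13.8 ± 0.552 FPKM with LPC and 10.8 ± 0.805 FPKM with vehicle (log2 change 0.32, limma adjusted p = 0.0382). Leaving out LPC replicate 1 (adjusted p = 0.0784) or 3 (0.0627), or the first or second vehicle library (0.151 and 0.187), ended the call. So did using no filter on low values (0.0893). Tyms, which makes thymidylate, had a log2 change of 0.29 and did not pass (limma adjusted p = 0.193). It was at 15.2 FPKM in LPC replicate 3 and at 8.95 and 10.9 FPKM in the other LPC libraries, against 9.04 to 9.29 FPKM in vehicle libraries.

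Of 12 tested methionine, transsulfuration and glutathione genes 1 rose and 1 fell (16.7%, against 13.7% of all tested genes). Mat2a, which makes the methyl donor S-adenosylmethionine, was at 67.9, 77.7 and 69.8 FPKM in LPC libraries and at 54.8, 53.7 and 52.2 FPKM in vehicle libraries (log2 change 0.41, limma adjusted p = 0.00896). Srr, the serine racemase gene, was at 3.63, 3.12 and 3.13 FPKM in LPC libraries and at 5.26, 6.71 and 5.17 FPKM in vehicle libraries (log2 change -0.64, limma adjusted p = 0.00349). Both calls were kept when any 1 library was left out, and both ended with no filter on low values (adjusted p = 0.0566 for Mat2a and 0.0766 for Srr). Of 7 proline and asparagine genes 1 rose and 1 fell (28.6%, on few genes). Prodh, which starts proline breakdown, was at 2.17, 2.13 and 2.37 FPKM in LPC libraries and at 1.18, 0.91 and 1.24 FPKM in vehicle libraries. Its log2 change was 0.61 (limma adjusted p = 0.00251), a call kept in every alternative that tested it. Mean Prodh was 2.22 FPKM with LPC and 1.11 FPKM with vehicle. The log2(FPKM + 1) scale understates the change of genes as low as Prodh and Srr. The asparaginase gene Asrgl1 averaged 10.4 ± 0.18 FPKM with LPC and 13.3 ± 0.285 FPKM with vehicle (log2 change -0.32, limma adjusted p = 0.0313). Its call ended without LPC replicate 1 (adjusted p = 0.0645) and without any vehicle library (0.141, 0.107 and 0.087 for numbers 1 to 3).

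Of 20 aminoacyl-tRNA synthetase genes, many of them ATF4 targets in other cells, 3 rose and none fell, with a list median of 0.04. Of all tested genes, 5.82% rose and 7.91% fell. The share of the list called in either direction was near the 13.7% of all tested genes, so its total is not a result about this list. The 3 that rose were Hars, Wars and Farsa, which charge tRNA with histidine, tryptophan and phenylalanine. Hars averaged 67.9 ± 3.82 FPKM with LPC and 52.2 ± 1.83 FPKM with vehicle (log2 change 0.37, limma adjusted p = 0.0134), and did not pass without the first (adjusted p = 0.0633) or second vehicle library (0.0797). Wars, which interferon-gamma also induces, averaged 86.4 ± 5.29 FPKM with LPC and 66.9 ± 3.34 FPKM with vehicle (log2 change 0.36, limma adjusted p = 0.0163). It did not pass without LPC replicate 1 (adjusted p = 0.0517) or without any vehicle library (0.0519, 0.0786 and 0.0632 for numbers 1 to 3). Farsa averaged 40.8 ± 3.39 FPKM with LPC and 31.5 ± 0.99 FPKM with vehicle (log2 change 0.36, limma adjusted p = 0.0205), and did not pass without LPC replicate 1 (adjusted p = 0.0719) or the first or second vehicle library (0.0927 and 0.0915). With no filter on low values Hars, Wars and Farsa did not pass (limma adjusted p = 0.0562, 0.0726 and 0.0861). None of 20 tested integrated stress response regulators and none of 12 other amino acid transporters passed, against 13.7% of all tested genes. Their log2 changes were -0.34 to 0.28 and -0.26 to 0.30.

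**Figure D4:**
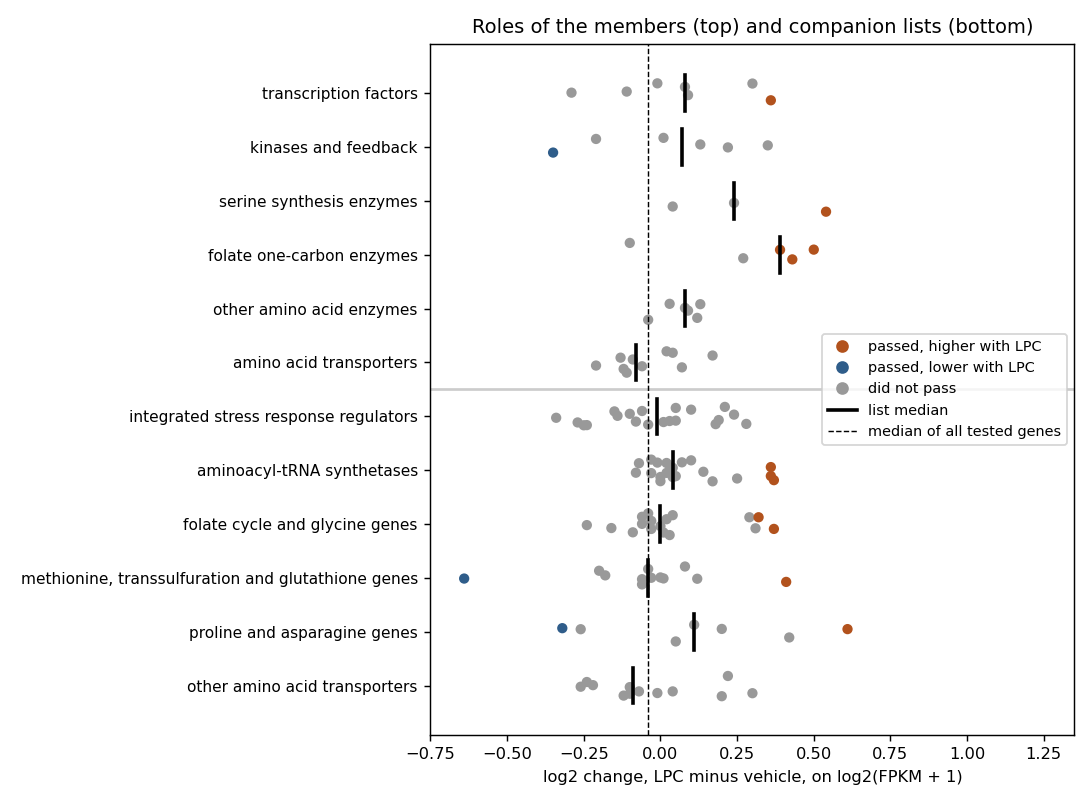
Log2 change (LPC minus vehicle, on log2(FPKM + 1)) of each tested gene, 1 point a gene, for the roles of the members with over 2 genes (top) and the 6 companion lists (bottom), with list medians as bars and the median of all tested genes, -0.04, as a dashed line. The folate one-carbon enzymes have the highest list median, 0.39, and the transporter genes lie on both sides of 0.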

How the data were processed

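Total RNA of 6 libraries was sequenced on a BGISEQ-500, aligned to GRCm38 with Bowtie2 and quantified by RSEM, per the labels' protocols, which give no versions. The authors deposited FPKM, 1 file for each library, for 18046 genes. RSEM divides reads shared by similar genes by estimate. The files hold no read totals. Steps between low FPKM values came nearest to whole reads at 19250000 to 19500000 reads a library (mean distance 0.183 to 0.191, against 0.230 to 0.240 with gene lengths shuffled), a loose estimate, so no count test was run. Symbols turned into dates (24) were restored by gene identifier, and 17918 identifiers matched RefSeq GRCm38.p6.

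A limma-trend model (limma 3.58.1, R 4.3.3) with 2 groups was fitted to log2(FPKM + 1) of the 10138 genes at 1 FPKM or above in at least 3 libraries, and p-values were adjusted by Benjamini-Hochberg. The script was tested on simulated data. Ratios within a library had 2-sided exact permutation tests. The text accounts for all 41 members and names called genes of the companion lists, up to 6 a list. The members and lists were chosen with earlier results of these data known. Replicate numbers were not treated as pairs. The alternatives were no filter, a filter at mean FPKM 5, a pseudocount of 0.1, quantile normalization, median centring, removal of trends with GC share and length of GENCODE M21 transcripts (values for 99% of tested genes), a replicate block, and leaving out each library. Exon overlaps come from GENCODE M21. Promoter windows of the other 5 members were not used here.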

Additional observations from a re-analysis of the deposited data

How the results depend on the processing

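Shmt1 and Mthfd1 passed in all 13 alternatives and Psph in 12 of 13, missing with no filter on low values (adjusted p = 0.0623). Over all tested genes, 108 rose and 83 fell with no filter, and 1180 rose and 1661 fell with the replicate block. Leaving out 1 library gave 225 to 809 rises and 288 to 1217 falls. Among the 41 genes, rises numbered 3 with no filter and 11 with the block (3 to 8 leaving out 1 library). Falls numbered 0 with no filter, and 0 with a filter at mean FPKM 5, which removed Eif2ak4 before the test. They numbered 2 after removal of GC and length trends and 3 with the block (0 to 1 leaving out 1 library). Companion genes gave 1 rise and 1 fall with no filter, 14 and 9 with the block, 1 fall with a filter at mean FPKM 5, and 2 to 11 rises and 1 to 8 falls leaving out 1 library. The filter at mean FPKM 5 also removed the companion genes Srr and Prodh before the test. The cause of the other shifts was not tested.

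Same-numbered libraries deviated from their group means with correlations of 0.02, 0.56 and 0.41 for numbers 1 to 3, against -0.50 to 0.06 between different numbers. Vehicle replicate 1 correlated at 0.06 with LPC replicate 3 and at 0.02 with LPC replicate 1, a small gap. Numbers 2 and 3 each correlated best with their own number. Not every same-numbered correlation was over 0.1, so the numbers were not taken as pairs, though pairing remains possible. With the block, calls among the 41 genes numbered 14 in place of 7, the added ones being Cebpb, Ddit4, Nupr1, Phgdh, Sesn2, Shmt2 and Slc38a1 (adjusted p = 0.00564 to 0.046).

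Genes near 0 changed sign. Log2 changes were 0.04 for Atf3 and 0.01 for Asns with median centring. With quantile normalization they were -0.03 for Atf4, Psat1 and Aldh18a1, -0.02 for Ppp1r15a and 0.00 for Slc7a3. After removal of GC and length trends they were 0.03 for Atf3 and Slc38a2, -0.04 for Aldh18a1, 0.00 for Slc7a5 and -0.02 for the Ddit3 to Atf4 ratio. None of these had passed. Leaving out 1 library gave ranges of -0.04 to 0.05 for Atf3, -0.02 to 0.08 for Ppp1r15a, -0.03 to 0.09 for Psat1, -0.09 to 0.01 for Asns, -0.04 to 0.13 for Aldh18a1 and 0.00 to 0.12 for Chac1. The ranges were -0.24 to 0.00 for Slc7a1, -0.05 to 0.08 for Slc7a3, -0.02 to 0.15 for Slc7a5, -0.08 to 0.14 for Slc7a11, -0.18 to 0.01 for Slc1a4 and 0.00 to 0.13 for Vldlr. For ratios they were -0.05 to 0.21 for Slc7a11 to Slc3a2 and -0.02 to 0.04 for Ddit3 to Atf4. The differences of Mthfd2 to Mthfd1 and of Shmt2 to Shmt1 kept their sign in all 8 alternatives. Low levels limit Slc7a11, Mthfd2l and Cbs.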
